A study of Mus musculus with 6 samples.

Results

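The genes of de novo ceramide synthesis were described in mouse liver with and without Ugcg, the glucosyltransferase that consumes ceramide. The set held 10 genes chosen by name, which were Sptlc1, Sptlc2, Kdsr, Cers2, Cers4, Cers5, Cers6, Degs1, Degs2 and Ormdl3. Of these, 8 had a value among the 16331 gene probe sets of the table used here, and Kdsr and Cers6 were not analysed here. Expression was measured with Affymetrix arrays in 6 samples, 3 labelled wildtype (WT, numbered 426, 428 and 430) and 3 labelled Ugcg-deficient (KO, numbered 427, 429 and 431). Both groups were total RNA from liver, and no treatment was given in the labels. The labels do not state the age, sex or strain of the mice, the way Ugcg was deleted, or the liver cells that lost it. They also do not say that each sample was a separate animal, so the p-values refer to the spread over these 6 samples, part of which may be technical.

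De novo synthesis takes place at the endoplasmic reticulum. Serine palmitoyltransferase joins serine to palmitoyl-CoA, a reductase gives sphinganine, ceramide synthases attach a fatty acyl chain, and a desaturase turns dihydroceramide into ceramide. Ceramide then leaves for sphingomyelin synthesis, for glucosylceramide synthesis by Ugcg, or for breakdown to sphingosine. Liver is a major site of the pathway and is rich in ceramides with very long acyl chains.

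None of the 8 measured genes passed the test between KO and WT. All values are log2 expression and all differences are KO minus WT on that scale, tested by limma with p-values adjusted (Benjamini-Hochberg) across the 16331 probe sets at an adjusted p under 0.05. That rule called 4 probe sets, or 0.0245%, and 0 of the 8 members. At an unadjusted p under 0.05 it called 815 probe sets, or 4.99%, and 1 member, Degs1, by limma. WT and KO values were fully apart for 1563 probe sets, or 9.57%, and for 1 member, again Degs1. With 8 genes, 1 call is close to what the background gives. Of the 8, 4 had a higher mean in KO and 4 a lower mean, with a median difference of 0.00879, against 52.5% higher and a median of 0.00586 over all probe sets. The size of the differences, taken without sign, had a median of 0.0435 among members and 0.0625 over all probe sets. The 95% intervals of the 8 differences lay between 0.842-fold and 1.36-fold of the WT level, each interval being for a single gene. Smaller changes were not resolved with 3 arrays a group.

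The Ugcg probe set itself read 6.81, 6.85 and 6.87 in WT and 7.12, 6.70 and 6.68 in KO arrays 427, 429 and 431. Where its probes lie relative to the deleted part of the gene is unknown here, which means that it cannot serve as a check of genotype, and every direction rests on the labels. Array medians ran from 6.79 to 6.81, and albumin, the main protein secreted by hepatocytes, read 14.60 to 14.69 in all 6 arrays. The mean of 9 hepatocyte markers (of 10 listed) ran from 13.10 to 13.15 in WT and from 13.18 to 13.22 in KO. Of the 9, 4 were higher and 5 lower in KO and 0 passed; Tat and Pck1, enzymes of amino acid breakdown and gluconeogenesis, differed by 0.43 and 0.38 with an unadjusted limma p under 0.05, and the other 7 by -0.079 to 0.022. On the first principal component (31.5% of the variance) KO 427 and WT 430 lay at 11.9 and 14.5 and the other arrays between -9.44 and -3.69. The mean of 9 exocrine pancreas markers (of 11 listed) was 9.54 in WT 430 and ran from 6.65 to 6.86 in the other arrays. The mean of 4 adipose markers (of 6 listed) was 7.23 in KO 431 and 6.43 to 6.61 elsewhere, all 4 being highest in KO 431. In the same array the mean of 6 red blood cell and leukocyte markers (of 9 listed) was 7.73, against 7.20 to 7.48 elsewhere. S100a8 read 7.76 in KO 431 (6.35 to 6.76 elsewhere) and S100a9 7.59 (6.48 to 6.85 elsewhere), both known from neutrophils. The rest of that list, Alas2, Ptprc, Cd3e and Ms4a1, lay within the range of the other arrays in KO 431. The mean of 5 bile duct markers (of 6 listed) was 6.66 in KO 429 and 6.22 to 6.35 elsewhere. Krt19 (7.60, against 6.33 to 6.46) and Epcam (6.86, against 6.22 to 6.40) were highest there, whereas Krt7, Sox9 and Cftr lay within the range of the other arrays. The mean of 8 Kupffer cell markers was 8.11 in KO 431 and 8.41 to 8.73 elsewhere. The means of 7 endothelial and 7 stellate cell markers ran from 7.96 to 8.09 and from 8.07 to 8.39 over the 6 arrays. In whole liver RNA, fewer cells of a type and less RNA per cell cannot be told apart.

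**Figure D1:**
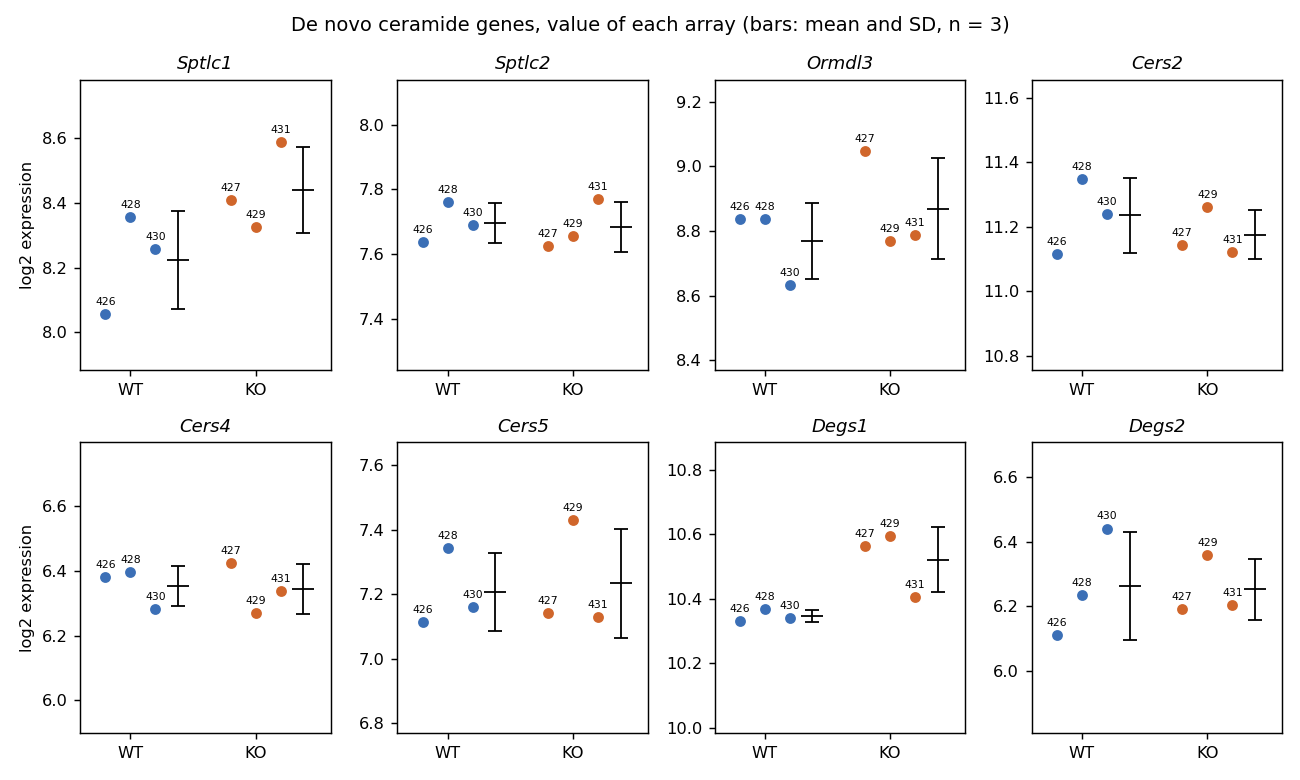
Log2 expression of the 8 measured genes in each array, one panel per gene, with the array number beside each point (WT blue, KO orange) and the group mean and SD (n = 3 each) as a bar at the right; every vertical axis spans the same 0.9 log2 units. The points of WT and KO are apart only for Degs1, whose lowest KO value is 10.41 and highest WT value 10.37.

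Serine palmitoyltransferase carries out the committed step. Sptlc1 encodes the subunit that lacks the catalytic lysine and holds the complex together. Its values were 8.06, 8.36 and 8.26 in WT 426, 428 and 430 and 8.41, 8.33 and 8.59 in KO 427, 429 and 431. WT 426 was the lowest and KO 431 the highest array, and the groups overlapped because WT 428 lay above KO 429. The means were 8.22 ± 0.15 in WT and 8.44 ± 0.13 in KO (SD, n = 3 each), a difference of 0.22 (SE 0.101, 95% interval -0.012 to 0.45), or 1.16-fold. Sptlc1 did not pass (limma adjusted p = 0.982). The difference was the largest of the 8 genes, its unadjusted p was under 0.05 in 2 of 12 alternative analyses, and it stayed above 0 with each array left out, between 0.13 without WT 426 and 0.28 without WT 428. The adipose markers and the neutrophil genes S100a8 and S100a9 were highest in KO 431, the array with the highest Sptlc1 value, and the Kupffer cell mean was lowest there. Their part in the Sptlc1 difference was not tested, and without KO 431 the difference was 0.14.

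Sptlc2 encodes the catalytic partner of Sptlc1. It read 7.64, 7.76 and 7.69 in WT 426, 428 and 430 and 7.63, 7.66 and 7.77 in KO 427, 429 and 431. The KO values spanned the whole WT range, and the total range over 6 arrays, 0.15, was the smallest of the 8 genes against 0.53 for Sptlc1. The means were 7.70 ± 0.06 and 7.68 ± 0.08 (SD, n = 3 each), and the difference of -0.011 (SE 0.0740, 95% interval -0.18 to 0.16) did not pass (limma adjusted p = 0.996). The standard deviation over 6 arrays exceeded that of 13.8% of all probe sets for Sptlc2 and of 86.9% for Sptlc1, so Sptlc2 was among the less variable probe sets and Sptlc1 among the more variable.

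Ormdl3 encodes an endoplasmic reticulum protein that binds serine palmitoyltransferase and restrains it when ceramide is plentiful. Its values were 8.84, 8.84 and 8.63 in WT 426, 428 and 430 and 9.05, 8.77 and 8.79 in KO 427, 429 and 431. KO 427 was above all WT arrays, whereas KO 429 and KO 431 lay between the WT values. The difference of 0.10 (SE 0.0987, 95% interval -0.12 to 0.32) did not pass (limma adjusted p = 0.984). It was 0.011 without KO 427 and 0.033 without WT 430, and it turned to -0.057 without both of these arrays, the ones set apart on the first principal component. The direction for Ormdl3 thus rested on KO 427 and WT 430.

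Other genes of de novo synthesis were measured as well, and 0 of the 6 measured genes of this list of 7 passed. Sptssa, a small activating subunit of serine palmitoyltransferase, read 10.43, 10.24 and 9.998 in WT 426, 428 and 430 and 10.42, 10.37 and 10.43 in KO 427, 429 and 431. The KO arrays lay close together and WT 430 was low, and the difference of 0.18 was 0.069 without WT 430. The second small subunit gene, Sptssb, differed by 0.12, with 6.33 in KO 429 and 5.76 to 5.90 elsewhere, and by -0.049 without KO 429. Sptlc3, an alternative catalytic subunit, differed by -0.0081. Among the relatives of Ormdl3, Ormdl1 differed by -0.012 and Ormdl2 by -0.054. Cers1, the ceramide synthase known from brain and muscle, differed by 0.12, and by 0.0065 without KO 427. The limma adjusted p of these 6 genes ran from 0.982 to 0.996. Sptssb, Sptlc3 and Cers1 had low means, under 6.51, the level below which probe sets were left out in an alternative analysis. Without detection calls, whether these genes were expressed is unknown here.

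Ceramide synthases set the length of the acyl chain. Cers2 makes ceramides with very long chains and is the synthase best known from liver. It read 11.12, 11.35 and 11.24 in WT 426, 428 and 430 and 11.14, 11.26 and 11.12 in KO 427, 429 and 431. Every KO value lay within the WT range. The means were 11.24 ± 0.12 and 11.18 ± 0.08 (SD, n = 3 each), and the difference of -0.060 (SE 0.0830, 95% interval -0.25 to 0.13, or 0.842-fold to 1.09-fold) did not pass (limma adjusted p = 0.987). It stayed below 0 with each array left out, but came to -0.0029 without WT 428.

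Cers4, which prefers acyl chains between those of Cers5 and Cers2 in length, read 6.38, 6.40 and 6.28 in WT 426, 428 and 430 and 6.42, 6.27 and 6.34 in KO 427, 429 and 431. The highest and the lowest value were both in KO, and the difference was -0.0094 (SE 0.0741, 95% interval -0.18 to 0.16, limma adjusted p = 0.996). The mean of Cers4 was under 6.51, the limit of the low probe sets, and no detection calls were available. Cers5, which prefers palmitoyl-CoA and makes long-chain ceramides, read 7.11, 7.34 and 7.16 in WT 426, 428 and 430 and 7.14, 7.43 and 7.13 in KO 427, 429 and 431. In each group 1 array, WT 428 or KO 429, stood above the other arrays of its group, and the difference was 0.027 (SE 0.103, 95% interval -0.21 to 0.26, limma adjusted p = 0.996). Without KO 429 the difference was -0.071. In that array 2 of 5 bile duct markers (Krt19 and Epcam) were highest, and so was the mean of the Kupffer cell markers (8.73). The part of either in the Cers5 difference was not tested. The 3 measured synthases thus had differences from -0.060 to 0.027, and a difference between the very-long-chain and the long-chain synthases was not tested.

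**Figure D2:**
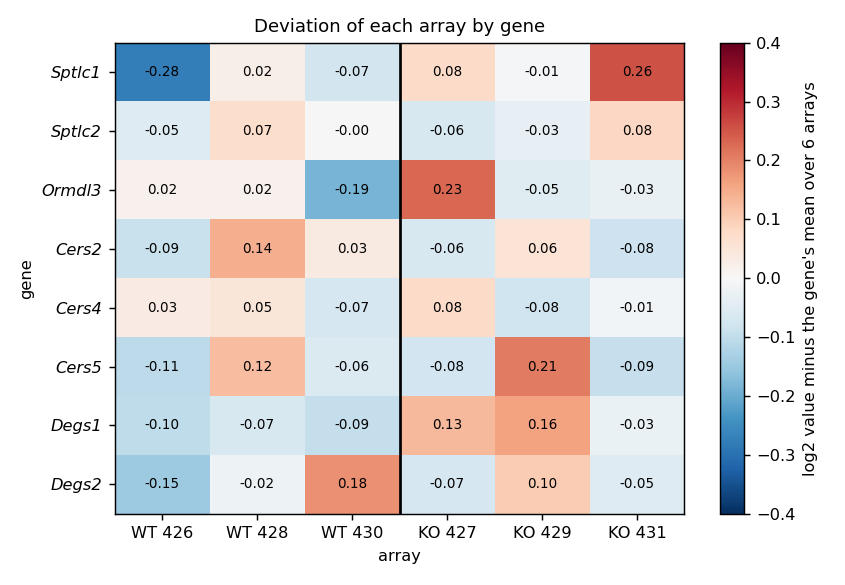
Log2 value of each array minus the gene's own mean over 6 arrays, genes in rows and arrays in columns, WT left and KO right of the black line, with red above and blue below the mean. WT 426 is the lowest array for 5 of the 8 genes, and Degs1 is below its mean in all WT arrays and above it in KO 427 and KO 429.

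The last step is the desaturation of dihydroceramide. Degs1 encodes the main desaturase, and its values were 10.33, 10.37 and 10.34 in WT 426, 428 and 430 and 10.56, 10.60 and 10.41 in KO 427, 429 and 431. The WT arrays lay within a narrow band and all 3 KO arrays above it, KO 431 by the least. The means were 10.35 ± 0.02 in WT and 10.52 ± 0.10 in KO (SD, n = 3 each), a difference of 0.17 (SE 0.0748, 95% interval 0.0047 to 0.34), or 1.13-fold. The limma adjusted p was 0.982, so Degs1 did not pass. The value was above every WT value in 3 of 3 KO arrays, and the difference stayed between 0.14 without KO 429 and 0.23 without KO 431 when an array was left out. It was 0.15 without KO 427 and WT 430. Over the 12 alternative analyses the adjusted p ran from 0.742 to 0.9997, and the unadjusted p was under 0.05 in 3 of them.

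Degs2 encodes the relative that also hydroxylates dihydroceramide to phytoceramide and is best known from skin, gut and kidney. It read 6.11, 6.24 and 6.44 in WT 426, 428 and 430 and 6.19, 6.36 and 6.20 in KO 427, 429 and 431. The WT arrays held both the lowest and the highest value, and the difference of -0.011 (SE 0.0973, 95% interval -0.23 to 0.21) did not pass (limma adjusted p = 0.996). The mean of Degs2 was under 6.51, the limit of the low probe sets, so its expression in liver is uncertain without detection calls. The highest value was in WT 430, where the pancreas markers were high, and the difference was 0.078 without that array; the part of pancreatic RNA in it was not tested. The difference between Degs1 and Degs2 was not tested.

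The stretches of 250 bases just before the start of both desaturase genes are shown because Degs1 was the 1 member whose groups did not overlap and Degs2 is its closest relative. They come from RefSeq on GRCm38.p6, run 5′ to 3′ on the strand of the gene (minus for both), and lie at chr1:182282196-182282445 for Degs1 and chr12:108702307-108702556 for Degs2. Capitals mark matches on either strand to 4 motifs, which were the TATA box (TATAAA), the CCAAT box (CCAAT), the GC box (GGGCGG) and the E-box (CACGTG). Matches to different motifs share no letters in these windows.
Degs1: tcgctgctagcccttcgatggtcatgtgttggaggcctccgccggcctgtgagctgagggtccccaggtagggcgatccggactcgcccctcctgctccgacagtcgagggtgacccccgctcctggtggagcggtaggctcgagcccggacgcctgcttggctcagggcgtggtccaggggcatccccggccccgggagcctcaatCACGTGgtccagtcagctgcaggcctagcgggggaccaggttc
Degs2: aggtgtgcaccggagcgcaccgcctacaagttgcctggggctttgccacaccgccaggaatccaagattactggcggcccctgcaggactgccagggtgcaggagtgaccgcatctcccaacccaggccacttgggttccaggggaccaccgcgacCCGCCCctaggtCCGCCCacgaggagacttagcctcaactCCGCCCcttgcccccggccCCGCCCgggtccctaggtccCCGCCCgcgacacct
Degs1 held 1 match to CACGTG, an E-box, and 0 to the others, and Degs2 held 5 matches to GGGCGG, the GC box, read here on the opposite strand as CCGCCC, and 0 to the others. The windows had a GC content of 69.6% and 69.2%, against a median of 52.4% over all 32851 promoter windows of RefSeq genes. All 10 listed genes had a window, with 11 windows in all since Cers2 had 2. Of these 11, 8 held GGGCGG, 4 held CCAAT, 3 held CACGTG and 0 held TATAAA, against 32.7%, 33.8%, 6.02% and 12.4% of all windows. The 11 windows had a GC content of 54.0% to 74.8%, all above the median of 52.4%. The shares over all windows were not matched for GC content, so the comparison does not show an enrichment of any motif. A match describes letters in the window and shows no binding.

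Across the 8 genes the arrays deviated in different ways. WT 426 had the lowest value for Sptlc1, Cers2, Cers5, Degs1 and Degs2, and its mean deviation from the genes' own means was -0.090, against -0.033 to 0.045 in the other arrays. KO 427 was highest for Ormdl3 and Cers4, KO 429 for Cers5 and Degs1, KO 431 for Sptlc1 and Sptlc2, WT 428 for Cers2 and WT 430 for Degs2. Each of the 3 KO arrays was thus highest for 2 genes, where a gene can have only 1 highest array. The mean of the 8 genes, taken relative to the WT mean of each, was -0.063, 0.069 and -0.0063 in WT 426, 428 and 430 and 0.057, 0.072 and 0.032 in KO 427, 429 and 431, and the groups overlapped.

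Among all 15644 named genes, those closest to Degs1 in pattern were Trabd2b, Cdkn2b and Tulp3. All of them had low values, 6.08 to 6.55, whereas Degs1 read 10.33 to 10.60 and the smallest value of any gene was 5.38. Closeness was the root mean square difference over 6 arrays between the deviations from each gene's own mean, which was 0.0235, 0.0241 and 0.0245 log2 units. For Sptlc1, the member with the largest spread, the closest genes were Trabd (0.0423), Chsy3 (0.0465) and Pfkfb4 (0.0473). Chsy3 and Pfkfb4 were also low, at 5.94 to 6.53, while Trabd read 8.44 to 8.90. With 6 arrays and so many genes, some will lie close, and this is a description only.

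**Figure D3:**
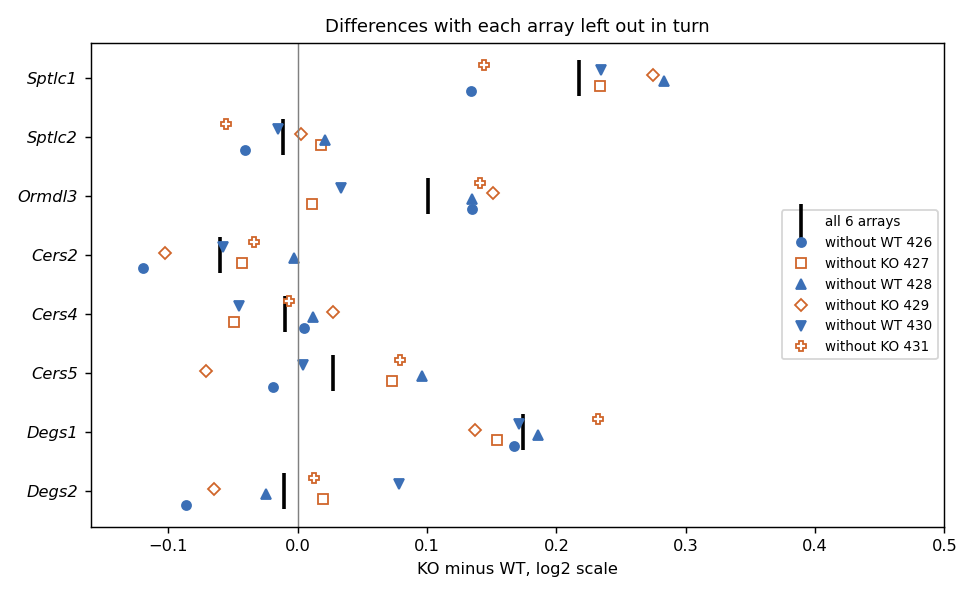
KO minus WT difference (log2 scale) of each gene with all 6 arrays (black bar) and with each array left out (blue: a WT array left out; orange: a KO array left out). Sptlc1, Ormdl3 and Degs1 stay above 0 and Cers2 below 0 in all 6 refits, while Sptlc2, Cers4, Cers5 and Degs2 fall on both sides.

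The genes that feed the pathway and those that use its product were taken from 6 lists, including the other de novo genes above, with 55 of 59 genes measured. None passed the limma test adjusted over all genes, and 5 had an unadjusted p under 0.05 (3 higher and 2 lower in KO), where 4.99% of all probe sets did. The groups did not overlap for 5 of the 55, against 9.57% of all probe sets.

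Very-long-chain ceramides need fatty acyl-CoA chains made by the elongation cycle. All 13 genes of acyl-CoA elongation had a higher mean in KO, with a median difference of 0.061, against 52.5% of all probe sets higher and a median of 0.00586; 0 passed after adjustment. Relative to the WT mean of each gene, the list mean was 0.016, -0.017 and 0.00098 in WT 426, 428 and 430 and 0.17, 0.14 and 0.12 in KO 427, 429 and 431. This mean was drawn up by Elovl6 and Elovl1, whose differences of 0.65 and 0.46 lay far above the list median. The list mean without them was not computed. The number of genes higher in KO was 10 of 13 without WT 430, and also without both WT 430 and KO 427. With 1 array or another left out, Elovl2, Elovl4, Elovl5, Hsd17b12, Hacd1, Hacd4 and Tecr changed sign. Elovl4 and Elovl7 had means under 6.51, the limit of the low probe sets, and no detection calls were available. Elovl6, which elongates palmitate to stearate, read 10.10, 9.57 and 10.25 in WT 426, 428 and 430 and 10.96, 10.37 and 10.55 in KO 427, 429 and 431. All KO arrays lay above all WT arrays, the closest being KO 429 and WT 430. The difference was 0.65 (SE 0.192, 95% interval 0.22 to 1.09), or 1.57-fold, with a limma adjusted p of 0.951.

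Elovl1, which makes the saturated very-long-chain acyl-CoAs that Cers2 uses, read 9.43, 9.47 and 9.96 in WT 426, 428 and 430 and 10.36, 10 and 9.87 in KO 427, 429 and 431. WT 430 lay above KO 431, so the groups overlapped. The difference of 0.46 (SE 0.163, limma adjusted p = 0.951) was 0.63 without WT 430 and 0.32 without KO 427. Elovl6 and Elovl1 were both highest in KO 427, and WT 430 was the highest WT array for both. The other 11 genes of the list differed by 0.024 to 0.17, with non-overlapping groups for Hacd3, a dehydratase of the cycle (0.17, adjusted p = 0.982).

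**Figure D4:**
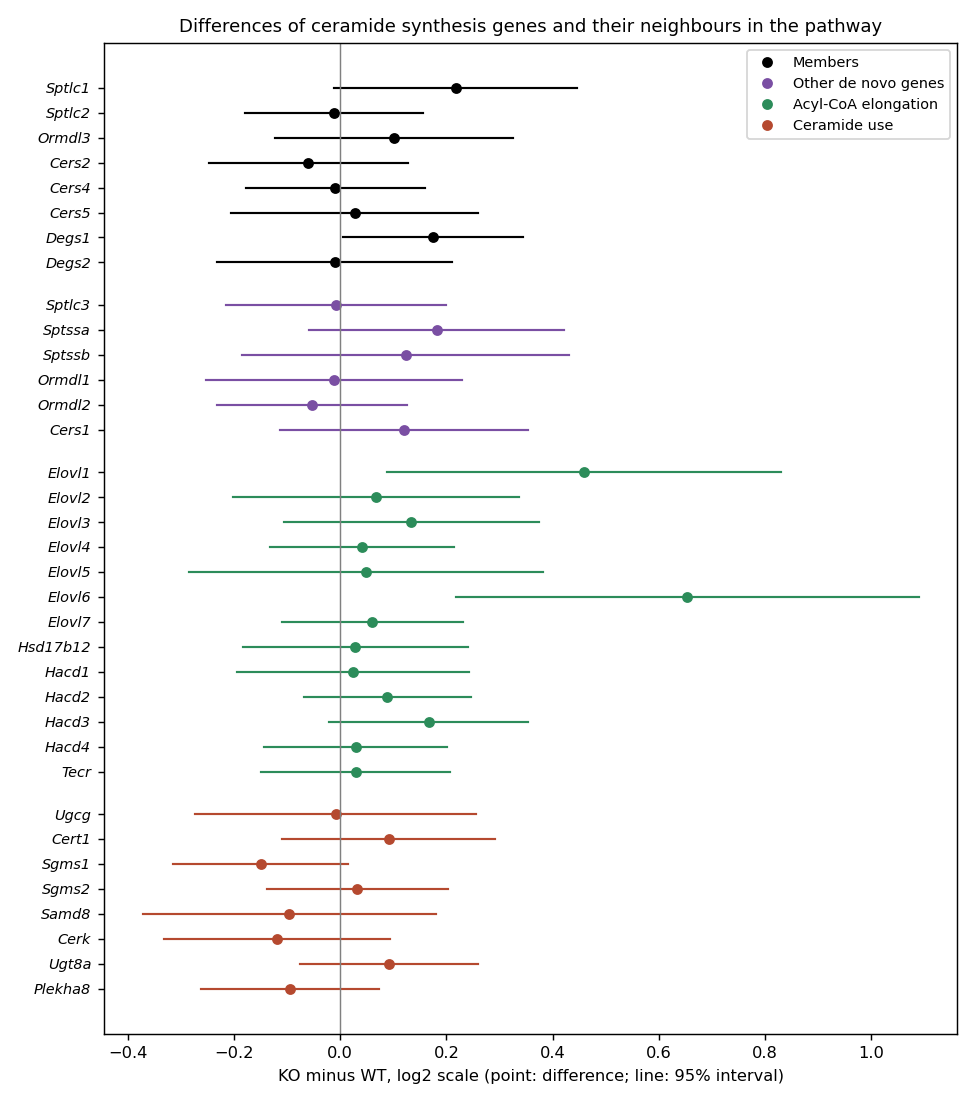
KO minus WT difference (point) and 95% interval (line) on the log2 scale for the 8 measured genes (black), 6 other genes of de novo synthesis (purple), 13 genes of acyl-CoA elongation (green) and 8 genes of ceramide transport and conversion (red). Intervals of all genes but Degs1, Elovl1 and Elovl6 include 0, and all 13 green points lie right of 0.

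For the other substrate, serine, 0 of 7 genes passed. Phgdh, the first enzyme of serine synthesis, read 9.39, 9.46 and 9.12 in WT 426, 428 and 430 and 9.03, 9.14 and 9.10 in KO 427, 429 and 431. KO values were close together, WT 430 lay among them, and the difference was -0.23 (limma adjusted p = 0.982) and -0.33 without WT 430. Shmt2, which interconverts serine and glycine in mitochondria, differed by 0.15 with groups that did not overlap (adjusted p = 0.982). Of 7 measured genes of palmitate synthesis and acyl-CoA activation (of 9 listed), 4 had a higher and 3 a lower mean and 0 passed. Acsl3, an acyl-CoA synthetase of the endoplasmic reticulum and lipid droplets, read 7.46, 7.18 and 7.22 in WT 426, 428 and 430 and 7.43, 7.53 and 7.66 in KO 427, 429 and 431, where WT 426 lay above KO 427. Its difference was 0.25 (limma adjusted p = 0.960).

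Downstream of ceramide, 0 of 8 genes of transport and conversion passed, with 3 higher and 5 lower means and a median of -0.052. The list includes Ugcg itself, one of the lower genes (-0.0088); the other 7 had 3 higher and 4 lower means and a median of -0.094. Sgms1, the Golgi sphingomyelin synthase, which like Ugcg consumes ceramide, read 7.36, 7.43 and 7.27 in WT 426, 428 and 430 and 7.15, 7.23 and 7.23 in KO 427, 429 and 431. The KO arrays all lay below the WT arrays, by the least between WT 430 and KO 431, and the difference of -0.15 (SE 0.0727, 95% interval -0.31 to 0.015) did not pass (limma adjusted p = 0.982). Ugt8a, which adds galactose to ceramide, also had groups that did not overlap, with a difference of 0.092 (adjusted p = 0.982). Its values were low, 5.91 to 6.11 over the arrays, where the smallest value of any gene was 5.38. Without detection calls, whether Ugt8a was expressed is unknown here. Plekha8, which carries glucosylceramide between Golgi membranes, differed by -0.094 and did not pass.

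Of 14 measured genes of ceramide release and sphingosine recycling (of 15 listed), 8 had a higher and 6 a lower mean and 0 passed. Sphk2, which phosphorylates sphingosine, read 8.13, 8.21 and 7.81 in WT 426, 428 and 430 and 7.61, 7.79 and 7.82 in KO 427, 429 and 431. WT 430 lay among the KO arrays, as it did for Phgdh. The difference was -0.31 (SE 0.113, limma adjusted p = 0.951), and it was -0.43 without WT 430.

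**Figure D5:**
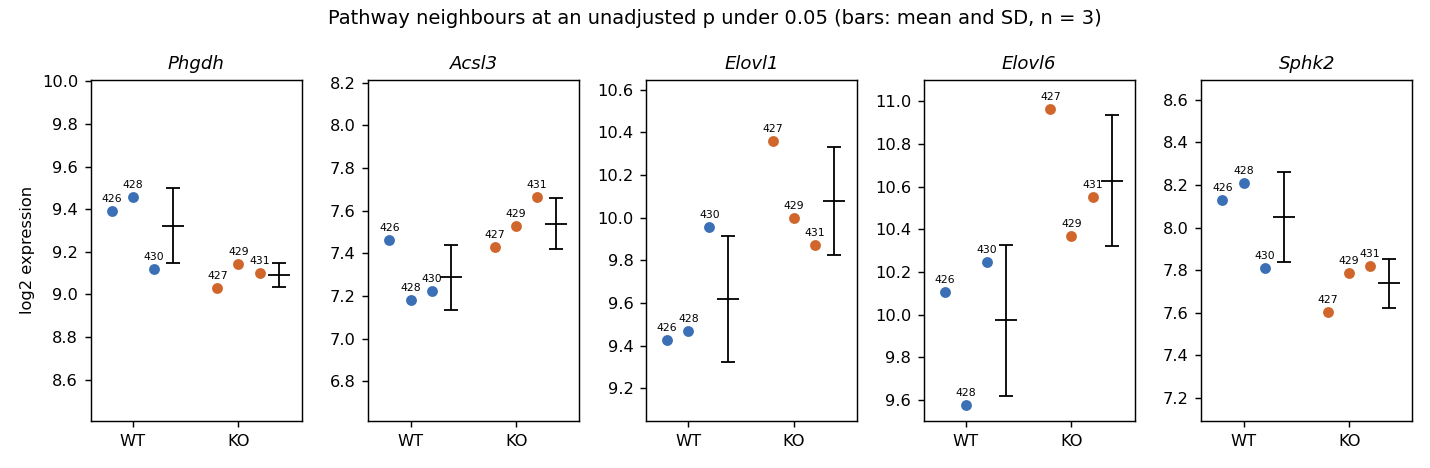
Log2 expression by array of the 5 pathway genes outside the member set with an unadjusted p under 0.05, drawn as for the members but with every vertical axis spanning 1.6 log2 units. The groups are apart for Elovl6 only, and WT 430 lies among the KO points for Elovl1, Phgdh and Sphk2.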

How the data were processed

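The authors deposited 1 table of log2 expression values, a unit read from the values (5.38 to 14.69); per the labels, biotinylated cRNA was hybridised to Affymetrix arrays. The normalization, summarisation, array type and genome build are unknown here. Probe sets are named by Entrez number, and the platform annotation gave 1 symbol to 15644 of 16331, several to 0 and none to 687; 64 controls were left out. The number of arrays limits the precision. Values were used as deposited. KO and WT were compared by limma 3.58.1 in R 4.3.3 (lmFit, eBayes, two-sided, 4 residual degrees of freedom) and figures were drawn with matplotlib 3.10.9. The fit was tested on simulated data. All members were named, and of each pathway list the genes at an unadjusted p under 0.05, otherwise those with the smallest p; Shmt2, Hacd3 and Ugt8a were added for non-overlapping groups after their values were seen. Members and lists were chosen with earlier results of these data known. Each result was recomputed with quantile-normalized arrays, with arrays centred on their medians, without the lowest 40 percent of probe sets by mean, with an intensity-dependent robust prior, with array weights, without each array, and without WT 430 and KO 427 together.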

Additional observations from a re-analysis of the deposited data

How the results depend on the processing

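No member and no other pathway gene passed the adjusted threshold under the 12 alternatives to the limma fit with all arrays, by the adjusted p of limma. Over all probe sets that threshold called 0 without WT 426, KO 427, WT 428, KO 429 or KO 431, so there the result holds for every gene. In the other alternatives it called 3 to 8 probe sets. Among members, differences changed sign for Sptlc2 (-0.0550 to 0.0212 with each array left out, 0.0144 without WT 430 and KO 427 together), Cers4 (-0.0495 to 0.0277), Cers5 (-0.0709 to 0.0959) and Degs2 (-0.0863 to 0.0782, 0.0269 with array weights and 0.108 without both arrays), and for Ormdl3 without both arrays (-0.0566). The cause was not tested. Of the 55 other pathway genes, 28 changed sign with 1 array or another left out, among them Sptssb, Sptlc3, Ormdl1 and Ugcg. The number of members at an unadjusted p under 0.05 was 0, not 1, after quantile normalization, with low probe sets left out (Cers4 and Degs2 then have no value), with an intensity trend and robust variance together, and without both arrays, and 0 to 1 with each array left out. The number with non-overlapping groups was 1 to 2 with each array left out and 3 without both arrays, by then with 2 arrays a group. Smaller groups are fully apart more often by arrangement alone. The share over all probe sets was not computed for these refits, so these counts cannot be read as a change in the members. The number of other pathway genes at an unadjusted p under 0.05, 5 with all arrays, was 1 to 6 with each array left out (1 without WT 428, 3 without KO 429 or KO 431) and 8 without both arrays. The share of all probe sets at an unadjusted limma p under 0.05 moved as well. It was 3.58% to 6.95% with each array left out (3.99% without WT 428, 4.4% without KO 429, 6.26% without KO 431). Without both arrays it was 6.75%, and in the other alternatives 4.91% to 5.61%. No paired analysis was made because the labels state no pairing of WT with KO samples, and any pairing is unknown here. The number of arrays and the lack of detection calls limit what can be resolved. The count of elongation genes higher in KO, whose alternatives were chosen after seeing the data, was 10 to 13.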
